A study of Mus musculus with 32 samples.

Results

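Cells of obese epididymal fat were compared between 2 single-cell libraries, one labelled CD169-DTR and one labelled WT, to separate the genes that differed in every cell class from those that differed in a single class. The members were all barcodes of these libraries on which 300 or more genes were detected and no more than 10% of the UMIs were mitochondrial (UMIs are unique molecular identifiers, each standing for 1 captured RNA). These came to 5705 cells of the library labelled CD169-DTR and 5187 of the library labelled WT, together 10892 of the 19564 cells that pass the same filter in the whole series. Both groups were C57BL/6 mice on a high fat diet for 16 weeks, and both received diphtheria toxin for 7 days, so the controls carry the toxin as well. A second pair of libraries, from mice on a normal diet with the same genotype labels and the same toxin, is given beside the obese pair as the lean pair. The 2 pairs share no library. CD45+ and CD45- cells of the stromal vascular fraction, which is fat tissue without its mature adipocytes, were sorted separately and combined 1:1, and the sort left out much of the F4/80-high macrophages and of the Ly6C-high monocytes. The sources used here do not give the number, age or sex of the mice behind a library, or the copies of the DTR allele. With 1 library a side nothing was tested: the intervals are 95% intervals for counting error, they hold no variation between mice, and genotype and library cannot be told apart.

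CD169, also called sialoadhesin, is a lectin on the surface of tissue resident macrophages, encoded by Siglec1. In CD169-DTR mice the cells that express it carry the receptor for diphtheria toxin and are killed by the toxin. Fat holds resident macrophages that clear dead adipocytes and lipid, dendritic cells that present antigen on MHC class II, lymphocytes, and fibroblasts that include the progenitors of adipocytes. Type I and type II interferons induce a shared set of antiviral genes. Cholesterol synthesis genes are switched on together by SREBP factors when sterols in the cell run low.

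Siglec1 (ENSMUSG00000027322, chromosome 2, 131069220 to 131086765 in GRCm38, minus strand) went against the label. Macrophages of the library labelled CD169-DTR held 108 Siglec1 UMIs, a level of 12.5 CPM (counts-per-million, the share of the UMIs of its class; interval 10.3 to 15.1), and those of the library labelled WT held 37, a level of 5.46 CPM (3.85 to 7.53). The log2 ratio of labelled CD169-DTR over labelled WT was 1.19 (0.64 to 1.77). In the lean pair the counts were 63 against 1, again higher in the library labelled CD169-DTR. Directions below are therefore directions between libraries by their labels. The genes within 5 Mb of Siglec1 numbered 157, and of the 21 that were measured in at least 6 classes, 0 passed 1.5-fold in the same direction in all of them.

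The library labelled CD169-DTR held 64766718 UMIs before the filter, with a median of 9202 per kept cell, and the library labelled WT held 49142626, with a median of 7833. The filter removed 9.33% and 22.5% of their barcodes. They shared 27 barcodes. Cells were put in a class by marker genes (81.5% and 85.8% received one), and names such as macrophage or T cell stand for cells with those markers. The 7 classes with at least 50 cells in each library were fibroblasts with adipocyte progenitors (called fibroblasts below), macrophages, type 1 and type 2 conventional dendritic cells (cDC1 and cDC2), T, NK and B cells, and each had 3 to 7 of its own markers among its 10 leading genes. Both libraries were almost free of Xist (6 and 1 UMIs) and had the Y-linked Ddx3y at similar levels, 133 and 127 CPM. Of the other genes checked for sex and strain, Wdfy1 was at 27.1 against 17.5 CPM over all kept cells. Its log2 ratio was 0.63 (0.51 to 0.75), and 0.70 (0.55 to 0.85) in the lean pair. In obese macrophages it was 1.05 (0.72 to 1.39) and in obese cDC1 0.11 (-0.69 to 0.85). AY036118 went the other way, 21.7 against 35.7 CPM over all kept cells. A difference in strain background was not tested.

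**Figure D1:**
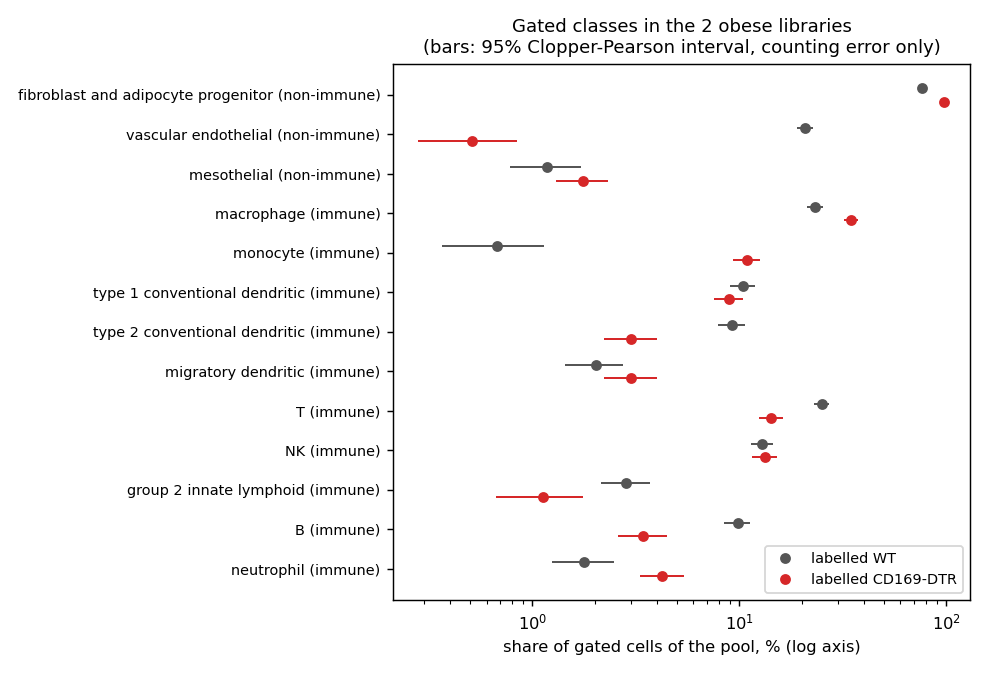
Share of each cell class among the gated immune or non-immune cells (percent, log axis) in the high fat diet libraries labelled CD169-DTR and WT; bars are exact binomial 95% intervals. Vascular endothelial cells are at 0.508% against 20.9%, and monocytes at 10.9% against 0.673%.

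The endothelium and the monocytes were far apart in their shares. Vascular endothelial cells numbered 15 of 2955 gated non-immune cells in the library labelled CD169-DTR, a share of 0.508% (exact interval 0.284 to 0.836), and 496 of 2373 in the library labelled WT, 20.9% (19.3 to 22.6), a 41.2-fold lower share. Under the other cell filters, gate, doublet removal and Leiden clusters it lay between 0.389% and 0.575% against between 18.6% and 23.8%. In the lean pair the share was 25% against 38.5%. Fibroblasts made up 97.4% against 76.7% of non-immune cells. Monocytes were 185 cells, 10.9% of gated immune cells, against 14 cells, 0.673%. With Leiden clusters as classes monocytes were the most frequent class of no cluster and both shares were 0. That setting therefore could not measure the difference, which rests on the gate alone. Under the stricter gate the monocyte shares were 11.2% against 0.651%, and in the lean pair 9.09% against 0.451%. Macrophages were 34.9% against 23.4%, T cells 14.3% against 25%, cDC2 3.01% against 9.23%, and B cells 3.42% against 9.81%. NK cells took a similar share, 13.3% against 12.9%. With Leiden clusters as classes cDC2 were 6.77% against 6.51%, so the cDC2 difference rests on the gate as well. The sort removed cells by F4/80 and Ly6C and can set the macrophage and monocyte shares. Depth per cell differed inside classes as well: the median was 1605 against 3228 UMIs in T cells and 6230 against 11229 in cDC1, but 3065 against 3030 in NK cells.

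The promoters of 4 genes are shown because the gene groups described below carry them: Isg15 and Ifit3 are interferon-induced antiviral genes, Hmgcs1 makes the precursor that cholesterol synthesis starts from, and Ciart is a repressor of the circadian clock. Each is the 250 bases before the start of the gene on its own strand, from RefSeq (GRCm38.p6), and capitals mark the motif of the group on either strand. The interferon element was searched as GAAA, any 2 bases and GAAA, the sterol element as TCAC, any base and CCAC, the E-box as CACGTG, and the D-box as TTA, any base and GTAA.
Isg15 (chr4:156200819-156201068, minus strand): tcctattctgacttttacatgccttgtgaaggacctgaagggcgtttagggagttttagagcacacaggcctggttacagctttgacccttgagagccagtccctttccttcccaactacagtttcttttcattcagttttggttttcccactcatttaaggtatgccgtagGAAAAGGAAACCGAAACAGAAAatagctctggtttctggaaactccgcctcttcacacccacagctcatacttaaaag
Ifit3 (chr19:34583279-34583528, plus strand): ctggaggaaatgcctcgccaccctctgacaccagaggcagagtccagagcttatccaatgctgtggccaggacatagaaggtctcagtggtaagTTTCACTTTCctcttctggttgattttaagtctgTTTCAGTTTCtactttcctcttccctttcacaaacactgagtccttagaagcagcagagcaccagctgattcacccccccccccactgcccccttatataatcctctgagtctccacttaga
Hmgcs1 (chr13:119690101-119690350, plus strand): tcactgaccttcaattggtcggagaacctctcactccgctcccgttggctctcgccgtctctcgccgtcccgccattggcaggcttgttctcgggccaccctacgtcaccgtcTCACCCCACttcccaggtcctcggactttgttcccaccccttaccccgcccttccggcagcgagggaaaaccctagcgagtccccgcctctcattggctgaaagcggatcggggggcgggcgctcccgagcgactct
Ciart (chr3:95882229-95882478, minus strand): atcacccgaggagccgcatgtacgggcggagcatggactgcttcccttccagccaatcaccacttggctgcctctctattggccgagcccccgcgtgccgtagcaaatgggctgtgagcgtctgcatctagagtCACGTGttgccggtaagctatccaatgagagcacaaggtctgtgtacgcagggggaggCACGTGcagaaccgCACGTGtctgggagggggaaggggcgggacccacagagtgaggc
Isg15 held 3 overlapping interferon elements, whose first letters lay 78, 72 and 66 bases before the start, and Ifit3 held 2, at 156 and 122 bases. The element was in 12 of the 21 interferon list promoters in the table (57.1%) and in 3.46% of all 27025 promoters. Hmgcs1 had the only sterol element among 10 promoters of the sterol list, against 1.22% of all. The sterol element, unlike the other motifs, was added after the data were seen. Ciart held 3 E-boxes, at 116, 58 and 44 bases. The E-box was in 5 of 17 clock promoters (29.4%) against 6.86% of all, and the D-box in 1 of 17 against 2.44%. A match is a description of these letters, and the table held a promoter for 8 of the 15 genes that shifted in every class.

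A gene was measured in a class with at least 50 UMIs over the 2 libraries, after the 154 marker genes were left out, and 3434 genes were measured in at least 6 of the 7 classes. In a class where a gene is nearly absent from one library, it is measured only through the other, which sets its direction. A gene was counted as shifted across classes when it was at least 1.5-fold apart in the same direction in every class that measured it. By that size rule 11 genes (0.32%) were higher and 4 (0.116%) were lower in the library labelled CD169-DTR. Few genes were near this: 1114 of the 3434 (32.4%) stayed under 1.5-fold in every class, and 374 (10.9%) passed it upwards in one class and downwards in another. The scaling moves the split: taking a trimmed mean of the log ratios (TMM) off the ratios of each class, after the class totals, gave 5 higher and 10 lower genes. Thinning every cell to 1000 UMIs left 541 genes measured that widely, of which 1 was higher and 0 lower. Just outside the rule, the smallest fold was 1.47 for Mrpl38 and 1.46 for Slc15a4 and Ddit3 among higher genes, and 1.40 for Ahnak and 1.38 for Cd9 among lower ones. Over the genes that a pair of classes shared, ratios resembled each other most between fibroblasts and macrophages (Spearman 0.592 across 3432 genes, which all come from the same 2 libraries).

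**Figure D2:**
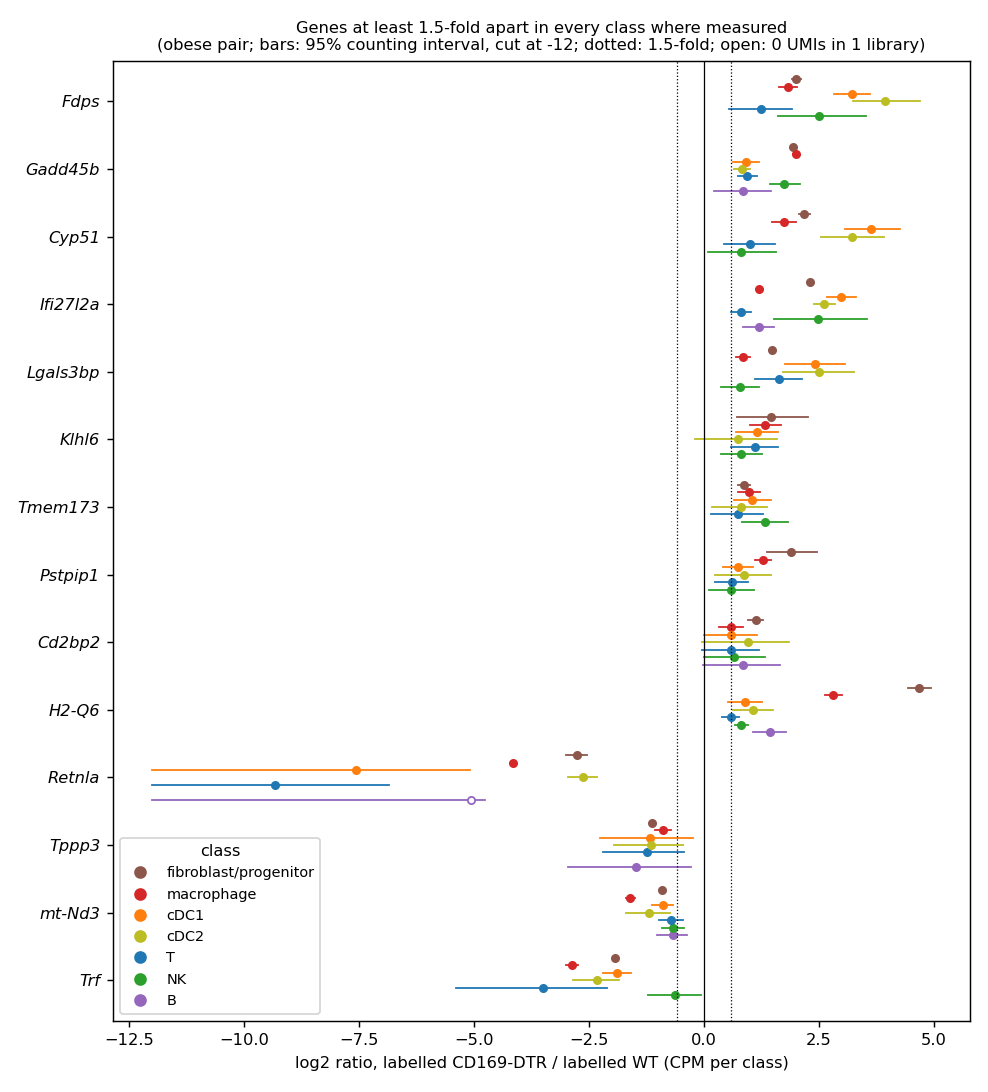
Log2 ratio of the library labelled CD169-DTR over the library labelled WT for 14 of the 15 genes past 1.5-fold in every class that measured them; a point is a class and a bar its 95% counting interval, cut at -12. Retnla lies lowest, between -9.32 and -2.62, and Fdps and Cyp51 reach 3.95 and 3.64 in dendritic cells.

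The genes that were higher in every class included a pair from cholesterol synthesis. Fdps (ENSMUSG00000059743, chromosome 3, 89093588 to 89101959), which makes farnesyl diphosphate, was measured in 6 classes. Its level was 248 against 26.7 CPM in cDC1, 208 against 13.5 in cDC2, 154 against 38.1 in fibroblasts and 133 against 37.5 in macrophages. In NK cells it was 72.4 against 12.7 CPM and in T cells 55.2 against 23.3. The libraries did not cross in any of these classes, and the log2 ratio ran from 1.24 (0.54 to 1.92) in T cells to 3.95 (3.24 to 4.71) in cDC2. Cyp51 (chromosome 5, 4081145 to 4104746), the lanosterol demethylase of the same pathway, was 145 against 11.6 CPM in cDC1 and 171 against 18.1 in cDC2. It was 157 against 34.3 CPM in fibroblasts, 74.1 against 22.1 in macrophages, 78.9 against 39.1 in T cells and 48.2 against 27.4 in NK cells. The smallest ratio was 0.81 (0.08 to 1.57) in NK cells. In the lean pair these genes were not raised in every class: Fdps had a log2 ratio of -0.49 in fibroblasts and a median of 0.71 over 9 classes, and Cyp51 a median of -0.43 over 8.

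A second group consisted of genes that interferon induces. Ifi27l2a (ENSMUSG00000079017, chromosome 12, 103442167 to 103443680), a small interferon-induced protein, was measured in all 7 classes. It stood at 1096 against 178 CPM in cDC2, 802 against 161 in fibroblasts and 750.1 against 324 in macrophages. In lymphocytes it was 573 against 251 CPM in B cells, 487 against 277 in T cells and 64.7 against 11.6 in NK cells, and in cDC1 it was 354 against 44.5. Every class was therefore higher in the library labelled CD169-DTR, least in T cells (log2 ratio 0.81, 0.60 to 1.02) and most in cDC1 (2.99, 2.69 to 3.31). Barcodes with under 300 genes, which the filter removed, held it at 161 against 15.7 CPM, from 21 and 4 UMIs, the direction of the cells. Of the other genes shifted across classes, these barcodes held Gadd45b at 276 against 78.3 CPM but Tmem173 at 7.67 against 11.7. The part of free RNA in the ratios of any gene was not tested.

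Other members of the higher set were less even. Lgals3bp (chromosome 11, 118392751 to 118402092), a secreted glycoprotein that interferon induces, was 345 against 123 CPM in fibroblasts and 102 against 18.1 in cDC2, with ratios from 0.78 in NK cells to 2.50 in cDC2. Tmem173, which encodes the DNA sensor adaptor STING, lay between 0.75 in T cells and 1.32 in NK cells. H2-Q6 (chromosome 17, 35424850 to 35430055), a non-classical MHC class I gene, was 159 against 6.16 CPM in fibroblasts and 299 against 42.4 in macrophages but 619 against 412 in T cells, a range of 0.59 to 4.69. Its reads are uncertain, since H2-Q7 and other close copies share its sequence. Gadd45b (chromosome 10, 80930073 to 80932204), a stress-induced gene, had its largest ratio in macrophages, 2.00 (1.94 to 2.05), from 1882 against 471 CPM, and its smallest in cDC2, 0.84. Klhl6, a substrate adaptor of a ubiquitin ligase, Pstpip1, a cytoskeletal adaptor, and Cd2bp2, a splicing protein, had medians of 1.14, 0.81 and 0.67 over their classes. Cd2bp2 is the weakest case, with intervals that exclude 0 in 4 of 7 classes.

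**Figure D3:**
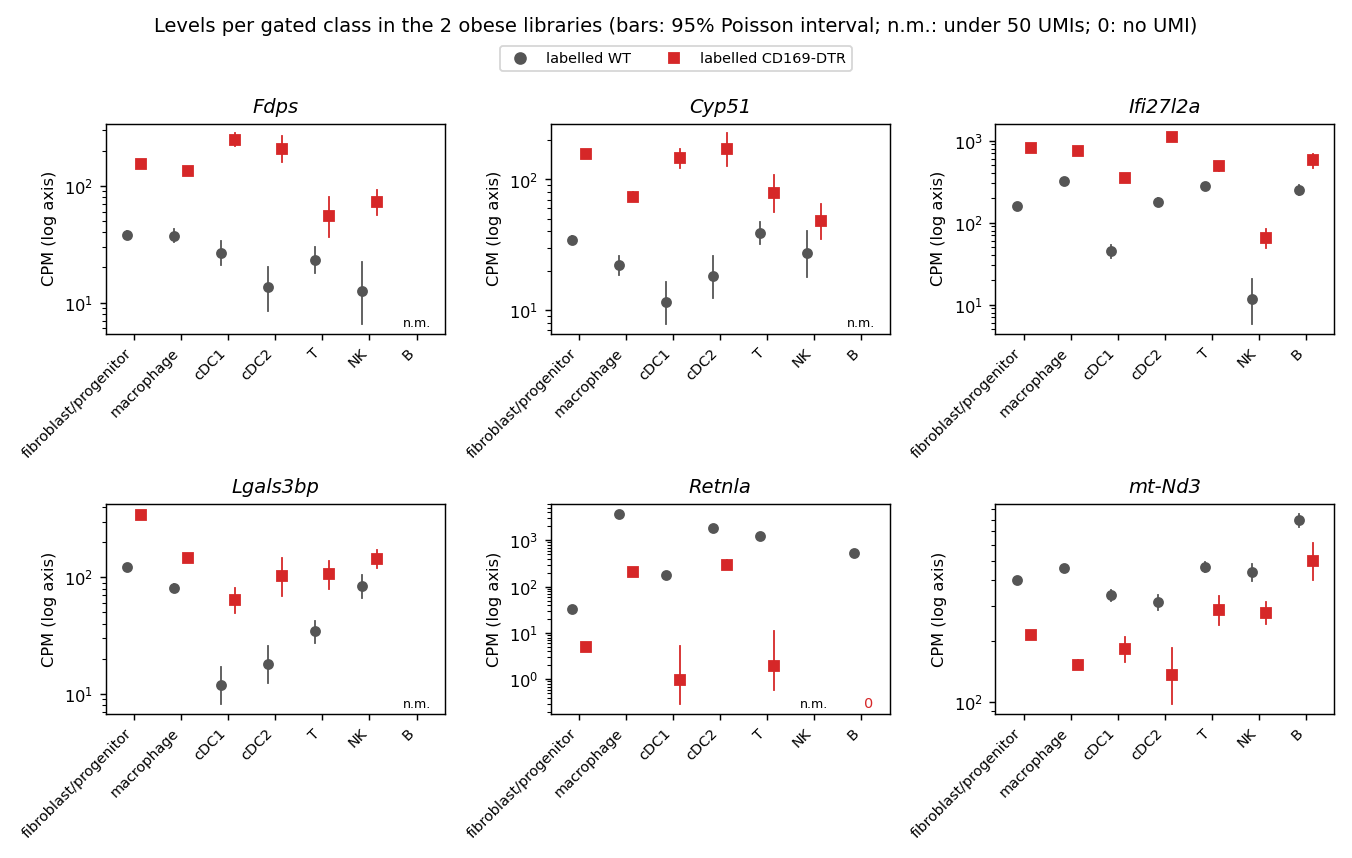
Level (CPM, log axis) of Fdps, Cyp51, Ifi27l2a, Lgals3bp, Retnla and mt-Nd3 in each class of the 2 high fat diet libraries, with 95% Poisson intervals. Retnla is at 210.4 CPM in macrophages of the library labelled CD169-DTR against 3717 in those labelled WT, while Ifi27l2a is higher in all 7 classes.

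Retnla (ENSMUSG00000061100, chromosome 16, 48842551 to 48844461) showed the largest difference of all 15. It encodes a secreted resistin-like protein known from alternatively activated macrophages. Macrophages held 210.4 CPM in the library labelled CD169-DTR and 3717 in the library labelled WT, a log2 ratio of -4.14 (-4.21 to -4.07), and cDC2 held 300.4 against 1848. In T cells it was 1 UMI against 3199, a level of 1.97 against 1264 CPM (-9.32, -14.63 to -6.85), and in cDC1 1 UMI against 473. B cells held 0 against 493 UMIs. With that 0 set to a floor of 3 UMIs the log2 ratio was -5.07, and the counting interval also holds smaller differences. Fibroblasts had 4.98 against 33.8 CPM. Where a class had few or no UMIs in one library, that library was the one labelled CD169-DTR. Barcodes under 300 genes had it at 7.67 against 78.3 CPM, from 1 and 20 UMIs, the direction of the cells. T cells with at least 25% of the macrophage markers were 0.826% against 7.12% of the T class, and without them the T class held 1 against 248 UMIs, 2.11 against 132 CPM (-5.96). These few cells thus carried most of the Retnla UMIs of the T class in the library labelled WT. In the cDC2 class, cells with at least 25% of the macrophage markers were 9.80% against 28.1%. Their part in the cDC2 ratios, of Retnla and of other genes, was not tested. In the lean pair Retnla was lower in all 8 classes, with a median of -4.73.

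The other lower genes were moderate. Trf (chromosome 9, 103204001 to 103230444), the iron carrier transferrin, was 66.6 against 486 CPM in macrophages, 117 against 447 in fibroblasts and 123 against 618 in cDC2, but only 47.2 against 72.8 in NK cells. Its ratio thus ran from -3.49 in T cells to -0.63 in NK cells. Tppp3, a tubulin-binding protein, was more even, from -1.46 in B cells to -0.89 in macrophages. The mitochondrial gene mt-Nd3 (mitochondrial genome, 9459 to 9806), a subunit of respiratory complex I, lay between -1.59 (-1.69 to -1.50) in macrophages and -0.67 in NK cells, from 153 against 462 CPM and 277 against 440. The cells removed for high mitochondrial UMIs were 416 against 1260, more in the library where mt-Nd3 was higher. The gene kept its call with a mitochondrial limit of 20% and a minimum of 200 genes, and with 5% and 500 genes. Both settings changed the gene minimum too, so the part of the mitochondrial limit by itself was not tested. Set beside the lean pair, 10 of the 11 higher genes and 4 of the 4 lower genes had a lean median of the same sign, and 6 and 3 of them passed 1.5-fold by the median. Under the same rule the lean pair gave 8 higher and 3 lower genes of 5343, and Retnla was lower by the rule in both pairs.

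Gene lists by function are given next as the median log2 ratio of the measured members, with the number past 1.5-fold. The median over all measured genes was 0.32 in fibroblasts, 0.25 in macrophages, 0.09 in T cells, 0.08 in NK cells, 0.07 in cDC1, 0.06 in cDC2 and -0.11 in B cells. TMM scaling lowered the ratios of these classes by 0.30, 0.25, 0.19, 0.14, 0.13, 0.23 and 0.06. It changed the higher share of genes past 1.5-fold from 81.1% to 56.9% in fibroblasts, from 78.0% to 52.2% in macrophages and from 57.1% to 30.7% in T cells. The shift in NK cells was from 64.4% to 43.0%, in cDC1 from 62.4% to 40.2%, in cDC2 from 55.8% to 27.7% and in B cells from 28.9% to 21.8%. List medians are to be read against these values. The shares of all genes at least 1.5-fold higher and lower were 33.2% and 7.74% in fibroblasts and 27.6% and 7.76% in macrophages. They were 10.2% and 6.17% in cDC1, 16% and 12.7% in cDC2, and 13.6% and 10.2% in T cells. NK cells had 16% and 8.85%, and B cells 7.36% and 18.1%. List counts are to be read against the shares of their class. Such shares are not given for the lean pair.

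**Figure D4:**
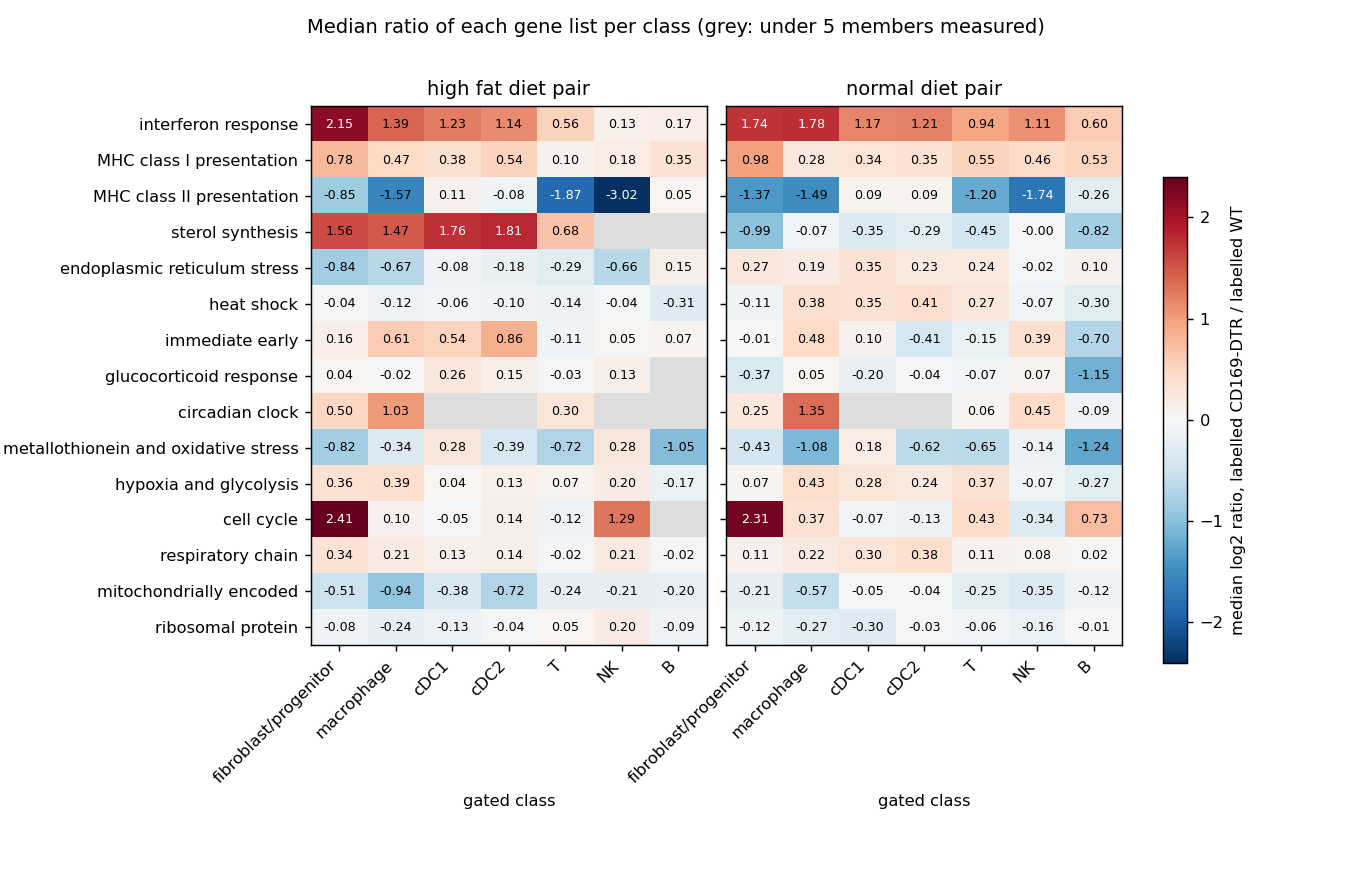
Median log2 ratio of each gene list (rows) in each class (columns), labelled CD169-DTR over labelled WT, for the high fat diet pair and the normal diet pair; grey where under 5 members were measured, and the printed number holds where the colour scale ends. The interferon list is high in fibroblasts and macrophages of both pairs, and the sterol list is at 1.56 in obese and -0.99 in lean fibroblasts.

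The interferon list was high in fibroblasts, macrophages and dendritic cells and less so in lymphocytes. In fibroblasts 28 of 29 members were at least 1.5-fold higher and 0 lower, against 33.2% and 7.74% of all genes, with a median of 2.15. Isg15 was 450.4 against 39.9 CPM there, and Ifi44 12.4 against 0.242. In macrophages 27 of 27 were higher, against 27.6% of genes, while 7.76% were lower, and the median was 1.39. Ifit3 was 113 against 6.64 CPM and Mx1, which blocks virus replication, 45.5 against 3.25. In cDC1 10 of 12 were higher and 1 lower (all genes 10.2% and 6.17%), with Irf7, the factor that amplifies type I interferon, at 156 against 21.3 CPM and Gbp2, a GTPase induced by interferon gamma, lower at 3.86 against 19. In cDC2 7 of 11 were higher and 1 lower (16% and 12.7%), and Ly6e was 748 against 96.6 CPM.

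In lymphocytes the interferon list was nearer to the background. T cells had 7 of 16 members higher and 2 lower, where 13.6% and 10.2% of genes were, with a median of 0.56. NK cells had 4 of 11 higher and 1 lower, where 16% and 8.85% were, and a median of 0.13. B cells had 2 of 6 higher and 1 lower, where 7.36% and 18.1% were, and a median of 0.17. With a minimum of 10 UMIs per gene the medians were 0.83 in NK cells and 0.51 in B cells. Ifitm3, a membrane protein that blocks virus entry, went the other way in these classes: 43.3 against 146 CPM in B cells, 39.5 against 82.3 in NK cells and 237 against 364 in T cells. The direction of Ifitm3 in T cells turned under per-cell averaging, thinning and clustering, and that in NK cells under clustering. The lean pair had medians of 1.74 in fibroblasts, 1.78 in macrophages, 0.94 in T cells, 1.11 in NK cells and 0.60 in B cells. The NK medians cover 11 members in the obese and 19 in the lean pair, and the B cell medians 6 and 12. Those medians are thus not of the same genes, and differences between the pairs were not tested.

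MHC class I genes, which present peptides made inside the cell, were higher in fibroblasts in 10 of 15 (33.2% of all genes; median 0.78) and in macrophages in 6 of 15 (27.6% of all genes; median 0.47), with 0 lower in both. The macrophage count is not far from that background. H2-Q7 was 108 against 14.3 CPM in fibroblasts and 244 against 59.9 in macrophages, again with reads that copies may share. The peptide transporter Tap1 was 205 against 100.3 CPM in NK cells. MHC class II genes, which present antigen that cells take up, were lower in macrophages, T cells, NK cells and fibroblasts and close to 0 in dendritic and B cells. Macrophages had 7 of 7 members lower, with a median of -1.57 and H2-Eb1 at 1128 against 4251 CPM and H2-Aa at 1651 against 5999. In cDC1, cDC2 and B cells the medians were 0.11, -0.08 and 0.05, and Cd74, the chain that guides class II molecules, was 28600 against 30885 CPM in cDC1. T cells had 6 of 6 lower (median -1.87) and NK cells 4 of 5 (median -3.02), and fibroblasts 4 of 6 (median -0.85). Of all genes 7.76% were lower in macrophages, 10.2% in T cells, 8.85% in NK cells and 7.74% in fibroblasts. Markers of cDC2 summed to 124 against 592 CPM in T cells and to 19.7 against 46.4 in NK cells. Barcodes under 300 genes held H2-Aa at 161 against 302 CPM but Cd74 at 668 against 493. The part of cDC2 RNA or free RNA in the class II ratios of T cells, NK cells and fibroblasts was not tested. Leaving out cells of other classes with at least 25% of the macrophage markers gave -1.52 in T cells, -2.52 in NK cells and -0.62 in fibroblasts. With Leiden clusters as classes the medians were -1.10 in T cells, -1.66 in NK cells and -0.58 in cDC2, and thinning gave -0.45 in fibroblasts. The lean medians were -1.49 in macrophages, -1.20 in T cells and -1.74 in NK cells.

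The sterol synthesis list was higher in every obese class that measured at least 5 members. The median was 1.56 in fibroblasts (13 of 16 higher, 0 lower) and 1.47 in macrophages (13 of 16). It was 1.76 in cDC1 (8 of 9), 1.81 in cDC2 (7 of 8) and 0.68 in T cells (4 of 8 higher, 1 lower). Of all genes, between 10.2% in cDC1 and 33.2% in fibroblasts were higher in these classes. Fdft1, the squalene synthase, was 62.0 against 10.8 CPM in fibroblasts and 28.8 against 5.31 in macrophages. Lss, which closes squalene to lanosterol, was 8.73 against 1.75 CPM in fibroblasts, and Mvd, a mevalonate pathway enzyme, 52.4 against 9.74 in macrophages. Insig1, a brake of the pathway, was among the smallest ratios of the list, with 43.6 against 31.4 CPM in fibroblasts and 33.1 against 25.7 in macrophages. The lean pair had a median of -0.99 in fibroblasts with 10 of 16 members lower and 0 higher, -0.07 in macrophages, -0.35 in cDC1, -0.29 in cDC2 and -0.45 in T cells.

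Endoplasmic reticulum stress genes were lower in fibroblasts (10 of 17, median -0.84), macrophages (12 of 16, -0.67) and NK cells (9 of 16, -0.66). Of all genes 7.74%, 7.76% and 8.85% were lower in these classes. T cells had 5 of 16 lower and 0 higher (median -0.29), and the medians of cDC1, cDC2 and B cells were -0.08, -0.18 and 0.15. The B cell median was -0.64 with a minimum of 200 UMIs and -0.38 with Leiden clusters, so its direction depends on these settings. The chaperone Hspa5, also called BiP, was 942 against 2487 CPM in fibroblasts, and Hsp90b1 312 against 643 in macrophages. Sdf2l1, a co-factor of BiP, was 14.3 against 72.9 CPM in fibroblasts, 69.9 against 176 in macrophages and 48.2 against 98.2 in NK cells. Ddit3, the transcription factor CHOP of the same response, stood apart from its list: 356 against 66.7 CPM in fibroblasts, 437 against 57.0 in macrophages, 123 against 57.0 in NK cells and 69.0 against 47.4 in T cells. Its regulator Atf4 was 565 against 231 CPM in macrophages. In the lean pair the list medians were 0.27 in fibroblasts, 0.19 in macrophages and -0.02 in NK cells, while Ddit3 was higher there too, with log2 ratios of 1.45, 2.98 and 1.32.

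Cell cycle genes were higher in fibroblasts (18 of 20, median 2.41) and NK cells (13 of 19, median 1.29), where 33.2% and 16% of all genes were. The medians were 0.10 in macrophages, -0.05 in cDC1, 0.14 in cDC2 and -0.12 in T cells. Per-cell averaging gave 0.46 in macrophages and -0.51 in T cells, and Leiden clusters -0.74 in T cells. Ccnb1 and Ccnb2, cyclins of mitosis, were 12.9 against 0.776 and 13 against 0.727 CPM in fibroblasts. Mki67, a marker of dividing cells, was 179 against 43.3 CPM in NK cells, and Ube2c, which works at the end of mitosis, 145 against 31.7. Pcna, of the replication fork, was not among them: it was 20.3 against 26.3 CPM in fibroblasts and 91.0 against 93.9 in NK cells. In fibroblasts thinned to 1000 UMIs the list median was 1.06, and in NK cells it was 0.44 with a minimum of 200 UMIs and 0.75 with Leiden clusters. The lean pair had 2.31 in fibroblasts but -0.34 in NK cells, where 7 of 19 members were lower.

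Clock genes were counted because expression of this group follows the hour of tissue collection, an hour the labels do not state. In macrophages 11 of 16 were higher and 1 lower (median 1.03), where 27.6% and 7.76% of all genes were. In fibroblasts 9 of 19 were higher and 2 lower (median 0.50), where 33.2% and 7.74% of all genes were and the median of all genes was 0.32. Nr1d1, the repressor REV-ERB alpha, was 161 against 10.2 CPM in macrophages, and Ciart 38.5 against 3.40. In fibroblasts Dbp, a clock output factor, was 68.4 against 4.22 CPM. Ciart was 7.22 CPM against 0 UMIs there, a log2 ratio of 5.63 with the 0 set to the floor of 3 UMIs. Arntl, the activator BMAL1, was on the other side, 31.7 against 48.7 CPM in fibroblasts. In lean macrophages 11 members were measured, of which 8 were higher (median 1.35). Immediate early genes, which respond to handling of cells within minutes, were higher in cDC2 (12 of 20, median 0.86), macrophages (11 of 20, 0.61) and cDC1 (9 of 19, 0.54). Of all genes 16%, 27.6% and 10.2% were higher in these classes. The immediate early medians were -0.11 in T cells, 0.05 in NK cells and 0.07 in B cells. With Leiden clusters the cDC2 median was 0.04, and thinning gave -0.57 in B cells. Fos was 1140 against 305 CPM in cDC2 and Ier2 1412 against 308 in macrophages. Whether collection time or handling has a part in any result was not tested.

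Mitochondrially encoded genes were lower by the median in every class, most in macrophages (12 of 13 lower, -0.94), cDC2 (7 of 12, -0.72) and fibroblasts (5 of 13, -0.51). Of all genes 7.76%, 12.7% and 7.74% were lower in these classes. The medians of the remaining classes lay between -0.38 in cDC1 and -0.20 in B cells, and none of the measured members was 1.5-fold higher in any of the 7 classes. After thinning the macrophage median was -0.60. The complex I gene mt-Nd2 was 817 against 2207 CPM in macrophages and mt-Co1, of complex IV, 4007 against 5977. Nuclear respiratory chain genes did not follow, with medians of 0.21 in macrophages and 0.34 in fibroblasts. Ribosomal protein genes, heat shock genes, glucocorticoid response genes and hypoxia genes had medians within 0.4 of 0 in every class that measured them, though the hypoxia median of cDC2 was 0.49 after thinning and 0.53 with Leiden clusters. The metallothionein and oxidative stress list was lower in fibroblasts (9 of 14, median -0.82), with the plasma peroxidase Gpx3 at 702 against 1818 CPM. In T cells 5 of 10 were lower (-0.72), but the median was -0.21 under per-cell averaging and -0.05 without the T cells that held macrophage markers. In B cells 3 of 5 were lower (-1.05, and 0.023 under per-cell averaging), and in cDC1 4 of 9 were higher and 0 lower (0.28). Of all genes 10.2% were lower in T cells and 18.1% in B cells, and 10.2% were higher in cDC1.

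In macrophages the resident list had the median farthest from 0 of all lists measured there. Of 12 resident macrophage genes measured, 10 were lower, 1 (Siglec1) was higher and the median was -3.33. Genes at 0 UMIs were set to the floor of 3 UMIs. Cd209f and Cd209g, C-type lectins, were 0.694 against 101 CPM and 0.579 against 44.3. Folr2, a folate receptor of resident macrophages, was 268 against 378 CPM. Marco and Cd209b, named after their values were seen, held 0 UMIs in the library labelled CD169-DTR against 63 and 60. Siglec1, which the label marks for removal, therefore stood opposite to the rest of its list. The summed level of the macrophage gate markers also differed, 4779 against 9736 CPM, and the part of this in the lists was not tested. The lean median was -0.91, with 4 of 7 lower and 2 higher.

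Engulfment genes, which recognise and take in dead cells, were lower in 10 of 12 macrophage members (median -0.83), against 7.76% of all genes. Gas6, the bridge between dying cells and TAM receptors, was 5.32 against 67.6 CPM, and Abca1, which exports cholesterol, 26.7 against 121, whereas Lrp1 was 269 against 288. The list of lipid-associated macrophages had its median at -0.03, with 2 of 18 higher and 3 lower: Spp1 (osteopontin) was 677 against 180.2 CPM and Plin2, a lipid droplet coat protein, 4643 against 2355, while Apoe was 860.2 against 5326 and Fabp4 192 against 730. Monocyte-derived genes were close to 0 (median 0.23, 1 of 7 higher). Among inflammatory genes the chemokine Ccl8 was 31.5 against 232 CPM and Cxcl9 1.85 against 14.2, but Saa3 was 25.2 against 0.590 and the growth factor Csf1 32.5 against 3.40. Of the collagen and matrix genes 18 of 23 were higher in macrophages and 1 lower (median 1.46), against 27.6% and 7.76% of all genes. The summed level of this list was nearly equal, 1630 against 1656 CPM. The summed fibroblast markers were 367 against 152 CPM in macrophages, and their part was not tested. In lean macrophages the collagen median was -0.30, with 2 of 6 higher and 2 lower.

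In the contractile and TGF-beta list 12 of 15 genes were higher in fibroblasts and 1 lower (median 1.20), where 33.2% and 7.74% of all genes were. Acta2, smooth muscle actin, was 355 against 28.1 CPM. Cnn1, calponin, was 2.45 CPM against 0 UMIs, a log2 ratio of 4.08 with the 0 set to the floor of 3 UMIs. Tgfbi, a matrix protein induced by TGF-beta, was lower at 21.5 against 60.9 CPM. Collagen and matrix genes went both ways, 13 of 30 higher and 6 lower (median 0.51, beside 0.32 over all genes), with Tnc, tenascin C, at 155 against 19.4 CPM and Timp3, a protease inhibitor, at 94.0 against 259. The pericyte and smooth muscle gate held 0 of 2955 and 3 of 2373 non-immune cells. Inside the fibroblast class its markers summed to 275 against 125 CPM, and 24.6% against 14.5% of the cells held at least 25% of them. Their part in the contractile list was not tested. Inflammatory genes were higher in 12 of 23 and lower in 4 (median 0.59), against the same 33.2% and 7.74%. Cxcl5, which attracts neutrophils, was 198 against 9.07 CPM and Saa3 188 against 11.8, and the eosinophil chemokine Ccl11 was 349.8 against 1168. Adipogenic genes had a median of -0.22, with Pparg, the master factor of fat cell formation, at 7.63 against 13.4 CPM and Klf5 at 5.81 against 1.79. Progenitor genes of the Dpp4-high state went both ways, with 3 of 14 higher and 5 lower and a median of -0.42. Igfbp5 was 10.5 against 93.5 CPM, but the summed level of the list was higher, 6073 against 5246 CPM. The lean fibroblasts had medians of 0.99 for the contractile list, 0.77 for collagen and 1.38 for the inflammatory list, and Acta2 differed there by 3.48.

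Cytotoxic and effector genes were lower in NK cells (7 of 12, 0 higher, median -0.87), where 8.85% of all genes were lower. The NK gate markers, which are not in this count, summed to 6203 against 11751 CPM in the NK class, and their part was not tested. In T cells 5 of 16 were lower and 1 higher (median -0.27, and -0.83 under per-cell averaging), against 10.2% and 13.6% of all genes. The difference between the classes was not tested. The chemokines Ccl4 and Ccl5 were 273 against 1234 and 4815 against 13039 CPM in NK cells, while Ifng, interferon gamma, was 84.4 against 98.2 and the receptor Klrk1 444 against 549.9. In T cells Tnf was 13.8 against 70.0 CPM and Pdcd1, which encodes PD-1, 304 against 204. The lean medians were -0.13 in NK cells and 0.16 in T cells. In B cells the list of B1 and B2 genes had a median of -0.26, with 3 of 9 higher and 3 lower. Of all genes in B cells 7.36% were higher and 18.1% lower. The immunoglobulin genes Ighm and Iglc1 were 15917 against 4180.4 and 4377 against 658 CPM, and Fcer2a (CD23) was 43.3 against 102. Plasma cell markers summed to 1753 against 704 CPM in the B class, where 12.1% against 5.88% of cells held at least 25% of them, and their part was not tested.

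Genes that shifted in a single class were at least 2-fold apart in that class, under 1.5-fold in all others, and had an interval that overlapped none of theirs. By that rule 28 of the 3434 genes (0.815%) shifted in one class, 15 higher and 13 lower. Fibroblasts held 10, all higher, T cells 6 and NK cells 3, all lower, and macrophages 4, cDC1 2, cDC2 2 and B cells 1. Classes with more UMIs have narrower intervals, so these counts cannot rank the classes.

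**Figure D5:**
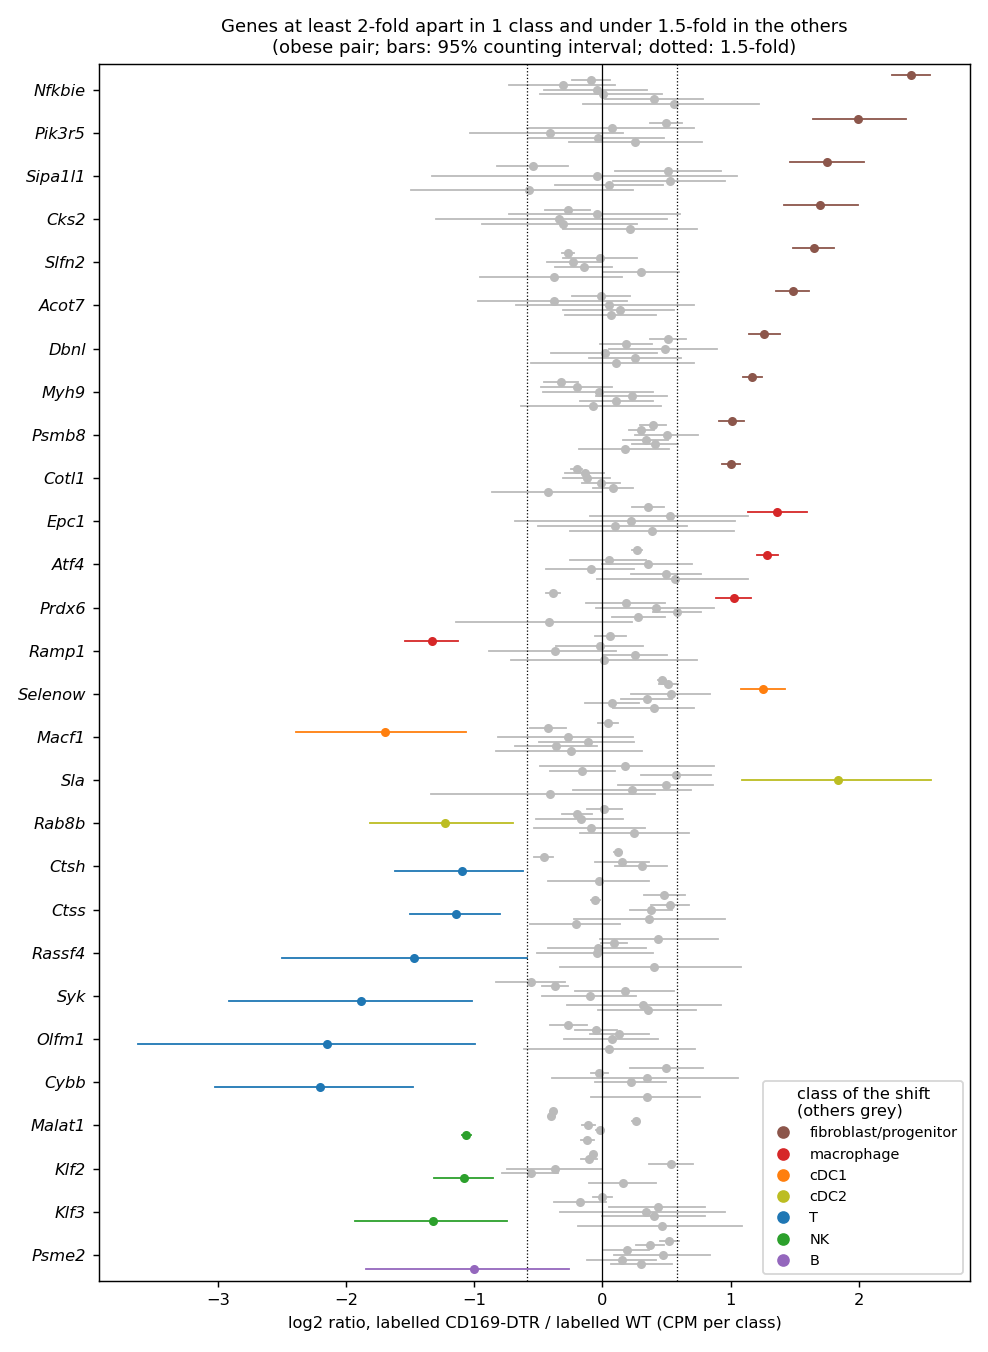
Log2 ratio of the 28 genes that shifted in a single class: the class of the shift with its 95% counting interval, and the other classes as grey points. Nfkbie in fibroblasts reaches 2.41 and Cybb in T cells -2.20, and the other classes of each gene lie within 1.5-fold.

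In fibroblasts Nfkbie (chromosome 17, 45555703 to 45563169), an inhibitor of NF-kappa B, was 102 against 19.3 CPM, a log2 ratio of 2.41 (2.26 to 2.56), and the other 6 classes lay between -0.31 and 0.56. Pik3r5, a regulator of PI3 kinase gamma, was 14.1 against 3.54 CPM (2.00), Sipa1l1, a GTPase activator, 18.9 against 5.63 (1.75) and Cks2, a partner of cell cycle kinases, 18.6 against 5.72 (1.70). The remaining 6 were Slfn2, Acot7, Dbnl, Myh9, Psmb8 and Cotl1, between 1.65 and 1.00, and Slfn2 and Acot7 are named after their values were seen. The lean fibroblasts had 0.91 for Nfkbie, 1.71 for Pik3r5 and 1.90 for Cks2, but 0.01 for Sipa1l1.

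The T cell set held genes known from myeloid cells and B cells. Cybb (X chromosome, 9435252 to 9487771), a subunit of the phagocyte oxidase, was 31.6 against 145 CPM (-2.20, -3.02 to -1.48), Syk, a kinase of antigen and Fc receptors, 21.7 against 80.2 and Rassf4 21.7 against 60.1. Ctss and Ctsh, lysosomal cathepsins, were 148 against 327 and 75.0 against 160.5 CPM, and Olfm1 11.8 against 52.6. The summed macrophage markers of the T class were 144 against 251 CPM and its cDC2 markers 124 against 592. Without the T cells that held at least 25% of the macrophage markers the ratios were -1.85 for Cybb, -1.75 for Syk, -0.84 for Ctss and -0.54 for Ctsh, so the cathepsins were under 2-fold. The part of the cDC2 markers was not tested.

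In NK cells Klf2 and Klf3, transcription factors of resting lymphocytes, were 249 against 527 and 38.4 against 96.1 CPM (-1.08 and -1.32), and the nuclear RNA Malat1 was 10338 against 21578 (-1.06). The other classes lay between -0.40 and 0.26 for Malat1. The lean NK cells had 0.33, -0.06 and -0.42 for these 3 genes. In macrophages Ramp1, a receptor partner for the neuropeptide CGRP, was 34.7 against 87.4 CPM (-1.33, lean -2.37), Atf4 was 565 against 231 (1.29, lean 0.78), Epc1, a chromatin protein, 77.9 against 30.3 (1.36) and Prdx6, an antioxidant enzyme, 181 against 89.2 (1.03).

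The dendritic and B cell genes complete the set. In cDC1 Macf1, which links actin and microtubules, was 22.2 against 71.9 CPM (-1.70, -2.39 to -1.07), and Selenow, a small selenoprotein, 521 against 219. In cDC2 Sla, an adaptor that lowers receptor signalling, was 92.2 against 25.7 CPM (1.84) and Rab8b, a GTPase of vesicle transport, 102 against 240.5 (-1.23). In B cells Psme2, an interferon-induced activator of the proteasome, was 86.6 against 174 CPM (-1.005, -1.85 to -0.26). The other 6 classes of Psme2 lay between 0.15 and 0.52, on the other side of 0.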

How the data were processed

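Each library was 8 sequencing runs (4 indices on 2 lanes), per the labels, and was counted once. The deposited matrix holds raw UMI counts for 31053 genes, made with Cell Ranger 3.1.0 and mm10 per the submitters' processing notes. Barcode suffixes were mapped to libraries by the order of the authors' aggregation list, which no other file checks. The sources used here do not say if that step equalised the depth of the libraries. Cells were gated from 154 markers: at least 30% of a class's markers detected and a lead of 15 points over the next class, thresholds set after the cell numbers were seen. Summed counts were divided by class totals. Ratios carry conditional exact binomial intervals, levels Poisson and shares Clopper-Pearson intervals. Named genes were all that shifted across classes, the 4 highest and 4 lowest in a class, and the 2 highest and 2 lowest of a list. 1 gene shifted across classes and 1 list member are not reported here. Members and lists were chosen with earlier results of these data known. Doublets were kept; Scrublet marked 1.16% and 1.29% of cells and leaving them out was an alternative, beside other filters, gates, scalings and depths. The rules were tested on simulated data. Python 3.11.15, numpy 2.4.6, scipy 1.17.1, pandas 2.3.3 and scanpy 1.11.5 were used.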

Additional observations from a re-analysis of the deposited data

Results flagged for a closer look

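In the following results the obese pair and the lean pair were each past 1.5-fold, in opposite directions. With 1 library a side the difference between the pairs was not tested, and no cause is given. The sterol synthesis list in fibroblasts had a median log2 ratio of 1.56 in the obese pair and -0.99 in the lean pair. Its member Cyp51 was at 2.19 against -0.705 in fibroblasts and 1.01 against -0.62 in T cells. The chemokine Ccl8 was at -2.88 against 1.37 in macrophages and -1.32 against 1.38 in fibroblasts. In fibroblasts Col4a1, a basement membrane collagen, was at -0.87 against 0.59 and the chaperone Hspa5 at -1.40 against 0.60. The mitotic gene Ube2c was at 2.19 against -1.79 in NK cells and -0.76 against 1.28 in macrophages. Stress genes differed in dendritic cells, with Egr1 at 2.38 against -0.60 in cDC2 and Gadd45b at 0.92 against -0.99 in cDC1. Among lymphocytes Ifitm3 was at -0.62 against 0.82 in T cells and Psme2 at -1.005 against 0.64 in B cells.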

How the results depend on the processing

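No paired analysis was possible because each group has 1 library, and for the same reason no replicate could be left out. Of the 11 higher, 4 lower and 28 single-class genes, Scrublet removal and the looser cell filter kept all 15 across-class genes. The higher and lower counts were 12 and 1 under the stricter cell filter, 5 and 1 under the stricter gate, 4 and 2 with a minimum of 200 UMIs, 37 and 7 with a minimum of 10, 5 and 10 under TMM scaling, 5 and 2 under per-cell averaging, 1 and 0 after thinning, 22 and 3 with Leiden clusters, 1 and 1 at 2-fold, 50 and 17 at a smaller fold, and 49 and 10 with at least 4 classes. Leaving out cells of other classes with macrophage markers, chosen after seeing the data, gave 3 and 1 over 2172 genes. Single-class counts were 17 at 200 UMIs, 4 after thinning and 59 with at least 4 classes. Of the 28 single-class genes, 23 were shared under Scrublet removal, 23 under the looser and 18 under the stricter cell filter, 13 under the stricter gate, 13 under TMM scaling, 12 under per-cell averaging, 10 with Leiden clusters and 12 without the cells of other classes that held macrophage markers. Thinning tested 541 genes in place of 3434, and the stricter gate 2211; other causes were not tested. Under the 11 cell, count, scaling and class settings, Ifi27l2a kept its call in 11 of 11 that measured it in at least 6 classes, Fdps, Lgals3bp and Retnla in 7 of 7, Cyp51 in 6 of 7 and Gadd45b in 8 of 10. Tmem173 kept it in 5 of 7, H2-Q6 in 6 of 10, Klhl6 in 3 of 7, Cd2bp2 in 3 of 9 and Pstpip1 in 2 of 7, Trf in 5 of 7, mt-Nd3 in 8 of 11 and Tppp3 in 3 of 6. Nfkbie kept its single-class call in 10 of 10, Slfn2 in 10 of 11, Epc1 in 1 of 7, Cybb in 2 of 6, Syk in 3 of 10, Klf2 in 4 of 11, Prdx6 in 4 of 10, Sipa1l1 in 3 of 9, Ctsh in 3 of 7, Ctss in 5 of 11 and Rassf4 in 2 of 6. Class shares left their intervals in 30 recomputations, of which 18 were with Leiden clusters and 10 under the stricter cell filter, and stayed within them in 100. List medians moved in 53 recomputations. Their sign turned in 103, of which 102 were of medians no farther than 0.28 from 0, as for immediate early genes in B cells (-0.57 after thinning). Among values past 1.5-fold, signs turned under per-cell averaging for the metallothionein list in B cells (0.023), Pstpip1 (-0.0772), Tppp3 (0.16) and Ifitm3 (0.0205) in T cells and Gbp7 in macrophages (-0.17), and after thinning for H2-Q6 in B cells (-0.37) and Ifitm3 in T cells (0.17). With Leiden clusters they turned for Gadd45b (-0.15) and H2-Q6 (-0.24) in cDC2, Egr1 (-0.26) and Ifitm3 (0.49) in T cells and Ifitm3 in NK cells (0.49). Depth limits B cells and cDC2 of the library labelled CD169-DTR most, at 58 and 51 cells.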
